A study of Mus musculus with 12 samples.

Results

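The 10 genes described here encode proteins that hold neighbouring epithelial cells together and set what passes between them. They are the claudins Cldn1, Cldn2, Cldn3, Cldn4, Cldn7 and Cldn8, the cadherins Cdh1 and Cdh16, the tight junction protein occludin (Ocln) and the scaffold ZO-1 (Tjp1). They were chosen by name, without use of measured values, as the entries of 2 expression tables whose Ensembl gene number carries one of these symbols. All 10 were found in both tables, among 32199 genes listed in the first and 31719 in the second, of which 28382 are in both. All 10 also passed the filter on low values in both tables.

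The data are bulk RNA-seq of kidney from male mice with acute kidney injury brought on by an iodinated X-ray contrast agent. Mice aged 8 weeks lost a kidney to surgery and recovered for 3 weeks, went without water for 24 h, and received the loop diuretic furosemide 20 min before iodixanol was injected into the tail vein. The kidney was taken 24 h after the contrast agent, so every group, wild types included, carries the operation and the injury, and no uninjured group was analysed here. A first set, in the submitters' batch 1, holds 3 wild-type C57BL/6 and 3 Padi4 knockout (PAD4 knockout) mice. A second set, in batch 2, holds 3 other wild-type C57BL/6 mice and 3 mice labelled Il33 knockout. The submitters describe the 3 libraries of a group as independent biological replicates. The labels do not give the alleles, whether a deletion is limited to a cell type, or whether wild types are littermates. Padi4 encodes an enzyme needed for neutrophil extracellular traps, and Il33 encodes a cytokine released from damaged cells.

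Tight junctions seal the gap between epithelial cells near their apical side, and claudins form both the seal and the channels through it. Claudin-2 makes a pore for cations and water in the leaky proximal tubule, whereas claudins 3, 4, 7 and 8 belong to the tighter distal nephron and collecting duct. Occludin and ZO-1 are general parts of the junction: occludin spans the membrane, and ZO-1 ties claudins to actin. Adherens junctions lie below and are built from cadherins, with E-cadherin (Cdh1) found in most epithelia and Ksp-cadherin (Cdh16) largely restricted to kidney tubules.

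The windows before the transcription start are shown for 4 claudins. Cldn3 and Cldn7 lay lower and Cldn2 higher in every knockout library than in any wild type of its set, whereas Cldn4 lay lower without overlap in the second set and overlapped in the first. Each is the 250 bases before the start from RefSeq on GRCm38.p6, written 5′ to 3′ on the gene's strand, with searched letters in capitals. RefSeq windows were matched for 7 of the 10 genes.
Cldn4, chr5:134946935-134947184, minus strand: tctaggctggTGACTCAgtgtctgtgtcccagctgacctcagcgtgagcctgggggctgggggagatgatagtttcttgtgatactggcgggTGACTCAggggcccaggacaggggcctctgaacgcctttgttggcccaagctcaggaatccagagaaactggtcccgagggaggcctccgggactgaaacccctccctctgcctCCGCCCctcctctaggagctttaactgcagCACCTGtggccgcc
Cldn3, chr5:134985964-134986213, plus strand: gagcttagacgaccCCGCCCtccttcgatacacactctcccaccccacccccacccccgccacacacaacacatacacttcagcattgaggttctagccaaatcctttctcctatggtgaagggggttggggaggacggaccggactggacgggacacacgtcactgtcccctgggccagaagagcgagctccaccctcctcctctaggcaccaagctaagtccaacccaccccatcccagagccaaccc
Cldn7, 1 of its 2 listed starts, chr11:69965171-69965420, plus strand: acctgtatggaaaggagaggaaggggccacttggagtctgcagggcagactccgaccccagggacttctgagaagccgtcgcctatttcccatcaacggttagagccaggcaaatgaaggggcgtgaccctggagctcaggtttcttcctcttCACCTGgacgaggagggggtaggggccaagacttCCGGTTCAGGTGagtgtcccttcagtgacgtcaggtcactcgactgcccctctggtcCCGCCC
Cldn2, chrX:139800558-139800807, plus strand: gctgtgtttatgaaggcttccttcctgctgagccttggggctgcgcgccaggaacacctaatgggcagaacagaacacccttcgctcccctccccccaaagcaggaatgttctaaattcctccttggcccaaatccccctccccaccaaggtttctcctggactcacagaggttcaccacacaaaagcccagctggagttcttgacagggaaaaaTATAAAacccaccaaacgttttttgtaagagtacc

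Cldn3 and Cldn4 are neighbours on chromosome 5, with starts 39.3 kb apart on opposite strands. The capitals mark 5 short motifs searched on both strands: AACCGG (the grainyhead-like, GRHL, core), CACCTG (an E-box of the kind bound by Snail and Zeb proteins), TGANTCA (AP-1), GGGCGG (GC box) and TATAAA, the core promoter element named after it. The Cldn4 window holds TGANTCA 240 and 158 bases before the start, CACCTG at 14 and GGGCGG at 44. The Cldn3 window holds only GGGCGG, at 236, and the Cldn2 window only TATAAA, at 35. The Cldn7 window holds AACCGG at 63, CACCTG at 97 and 57, and GGGCGG at 6, with the AACCGG match directly beside the second CACCTG match and not overlapping it. Of 32851 windows of this length, 5.62% hold AACCGG, 17.2% CACCTG, 6.75% TGANTCA, 12.4% TATAAA and 32.7% GGGCGG. The Cldn3 and Cldn4 windows thus share no searched motif other than the GC box. The window of the other listed Cldn7 start, not shown, holds none of the 5 motifs. The motifs of the Cldn7 window shown are not particular to a changed gene. A window of Ocln, which passed the test described below in neither set, holds the GRHL core at 86, the E-box at 213 and 68, and the GC box at 43. The other listed Ocln window holds only the GC box, at 112.

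Levels are given in FPKM, which counts fragments by transcript length and by the fragments mapped in the library, so levels of different genes can be set side by side within a table. A change is the knockout mean minus the wild-type mean of log2(FPKM + 1), with its limma standard error (SE), and a gene is called when limma's Benjamini-Hochberg adjusted p over all genes tested is under 0.05. With 3 libraries against 3, the exact two-sided permutation test cannot go below p = 0.1, the value it gave wherever the groups did not overlap.

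The targeted transcripts were checked first. Padi4 was at 0.704, 1.06 and 1.67 FPKM in the wild types of the first set and at 0.217, 0.497 and 0.187 FPKM in the PAD4 knockouts, with no overlap (change -0.71 ± 0.19 SE, limma adjusted p = 0.0147). In the second set Padi4 was nearly absent and below the filter. It was at 0, 0 and 0.022 FPKM in those wild types and at 0.0107, 0 and 0 FPKM in the libraries labelled IL-33 knockout. Whether the fall of Padi4 in the first set comes from the deletion alone was not tested. Il33 was at 1.72, 1.13 and 3.64 FPKM in the wild types of the second set and at 1.14, 0.616 and 1.02 FPKM in the libraries labelled IL-33 knockout, which overlap (change -0.65 ± 0.28 SE, adjusted p = 0.0990). Il33 was also measured in the first set, at 3.57, 5.29 and 3.28 FPKM in the wild types and at 0.889, 1.58 and 1.28 FPKM in the PAD4 knockouts, where it fell without overlap (-1.16 ± 0.23 SE, limma adjusted p = 0.00209). The IL-33 knockout label is therefore kept as a label throughout, and a residual transcript in either knockout can come from outside the deleted part. Summed FPKM per library ran from 700601 to 812981 in the first table and from 385124 to 420279 in the second, with 52.0% to 60.0% and 24.1% to 29.2% of it from the mitochondrial genome. Markers of tissues other than kidney were present in the first set and moved with its groups. A list of 23 colon epithelium genes summed to 839.7, 1117 and 1356 FPKM in its wild types against 519.1, 536.7 and 475.1 FPKM in the PAD4 knockouts, and 20 of the 23 fell while 1, Guca2b, rose. Of these sums Guca2b gave 74.7, 55.3 and 87.4 FPKM in the wild types and 344.4, 106.4 and 210.7 FPKM in the PAD4 knockouts. A list of 12 lung epithelium genes summed to between 299 and 854.1 FPKM against 43.2 and 215.9 FPKM (8 of 10 tested fell), and 8 of 10 smooth muscle genes fell. In the second set 17 of the colon genes had a value and summed to between 196.8 and 276.3 FPKM in the wild types and between 287 and 323.5 FPKM in the libraries labelled IL-33 knockout. Guca2b alone, which is not limited to colon, gave 143.2 to 201.6 and 236.4 to 273.8 FPKM of that. The colon genes Slc26a3, Muc2 and Cdh17 were at or near 0 there, and the lung list summed to at most 4.30 FPKM in any library.

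**Figure D1:**
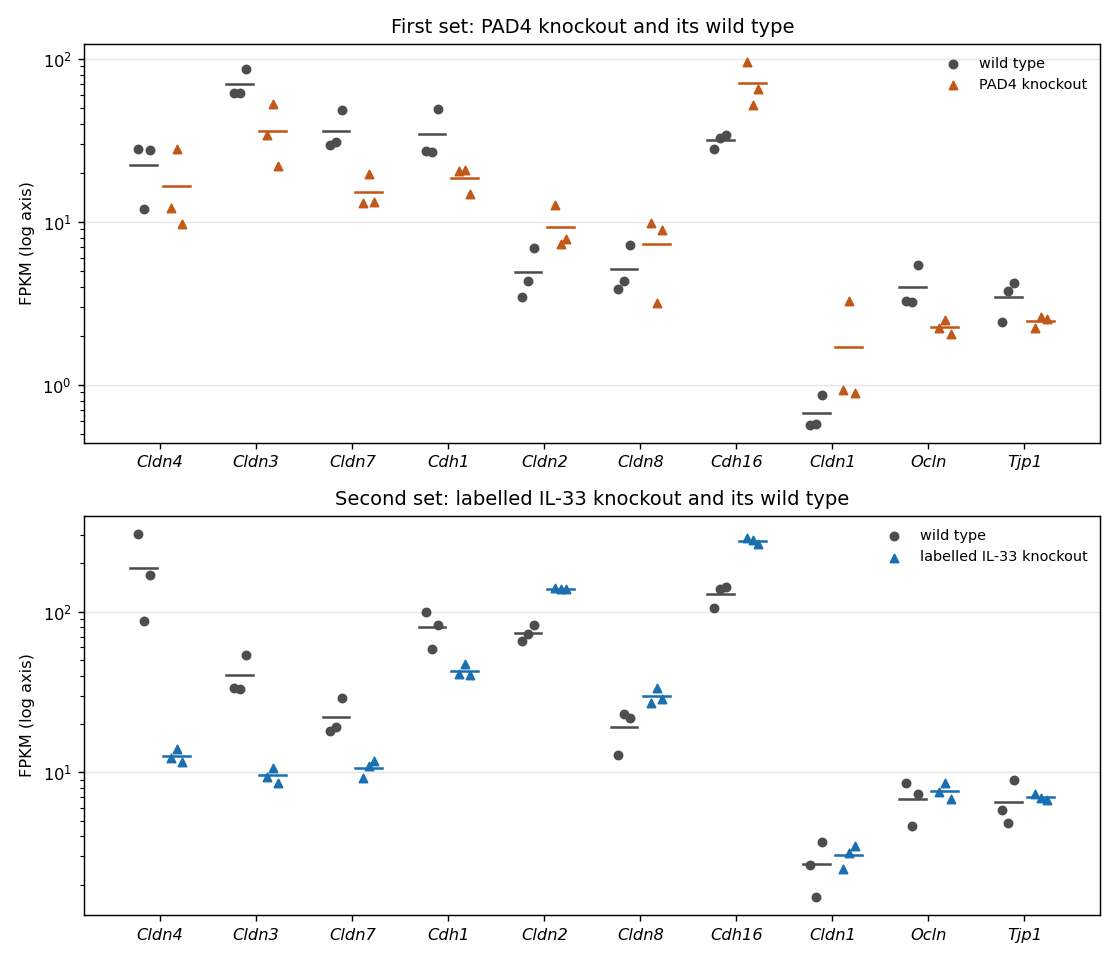
FPKM of the 10 junction genes in every library (log axis; points are libraries, short lines group means), first set above and second set below. Cldn4 in the second set runs from 87.4 to 303 FPKM in the wild types and from 11.6 to 14.0 FPKM in the libraries labelled IL-33 knockout.

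In the second set, 7 of the 10 junction genes changed in the libraries labelled IL-33 knockout: Cldn2, Cldn8 and Cdh16 rose, and Cldn3, Cldn4, Cldn7 and Cdh1 fell. Over all 14513 genes tested 39.1% were called, 22.2% higher and 16.8% lower, so many genes moved in this comparison. The same 7 genes had groups that did not overlap, as had 54.6% of all genes (30.2% with the knockout higher and 24.3% lower). The median change of the 10 was 0.145 beside 0.0442 over all genes tested, since rises and falls largely balanced.

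Cldn4, a barrier claudin of the distal nephron and collecting duct, moved most among the 10. It was at 303, 87.4 and 169.5 FPKM in the wild types and at 12.3, 14.0 and 11.6 FPKM in the libraries labelled IL-33 knockout. The wild types spread widely among themselves while the knockouts lay close together, and the lowest wild type was far above the highest knockout. The means of 187 ± 109 and 12.6 ± 1.24 FPKM (SD, n = 3) differ 14.8-fold, a change of -3.61 ± 0.38 (SE, limma adjusted p = 0.000400). Leaving out each library in turn gave changes between -4.07 and -3.17.

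Its neighbour Cldn3, also a sealing claudin, was at 33.4, 32.9 and 54.1 FPKM in the wild types and at 9.42, 10.7 and 8.62 FPKM in the libraries labelled IL-33 knockout. The groups are well apart, with means 4.19-fold lower in the knockouts (-1.93 ± 0.19 SE, limma adjusted p = 0.000325). The ratio of Cldn4 to Cldn3 FPKM was 9.09, 2.66 and 3.13 in the wild types and 1.30, 1.31 and 1.35 in the knockouts, so Cldn4 stood lower relative to Cldn3 in every knockout library.

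Cldn7, a claudin found at the basolateral side of distal tubule cells as well as in junctions, was at 18.1, 19.1 and 29.0 FPKM in the wild types and at 9.24, 10.9 and 11.8 FPKM in the knockouts. The knockout mean was 48.3% of the wild-type mean, with no overlap (-0.96 ± 0.18 SE, limma adjusted p = 0.00510). Cldn8, which works with claudin-4 in the collecting duct, went the other way: 12.8, 23.1 and 21.8 FPKM in the wild types and 27.2, 33.3 and 28.7 FPKM in the knockouts. This rise was the weakest call of the 7 (0.64 ± 0.21 SE, limma adjusted p = 0.0447), and it rests on most libraries. The adjusted p was 0.0502 without wild-type replicate 3, and 0.0805, 0.132 and 0.0997 without knockout replicates 1, 2 and 3.

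Cldn2, the cation and water pore of the proximal tubule, was at 65.6, 72.8 and 82.7 FPKM in the wild types and at 139.5, 138.8 and 138.7 FPKM in the libraries labelled IL-33 knockout. The knockout values were nearly the same and all above the wild types, 1.89-fold higher on average (0.91 ± 0.10 SE, limma adjusted p = 0.000470). The ratio of Cldn2 to Cldn4 was 0.216, 0.833 and 0.488 in the wild types and 11.4, 9.90 and 11.9 in the knockouts.

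Both cadherins changed, in opposite directions. E-cadherin (Cdh1) was at 99.2, 59.0 and 82.3 FPKM in the wild types and at 40.8, 47.2 and 40.4 FPKM in the knockouts, so that all 3 knockouts lay below the lowest wild type (-0.86 ± 0.18 SE, limma adjusted p = 0.00777). Ksp-cadherin (Cdh16) was at 106.1, 139.2 and 142.3 FPKM in the wild types and at 286, 279.7 and 265 FPKM in the knockouts, 2.14-fold higher on average and again without overlap (1.11 ± 0.12 SE, adjusted p = 0.000520). The ratio of Cdh16 to Cdh1 went from 1.07, 2.36 and 1.73 in the wild types to 7.02, 5.93 and 6.57 in the knockouts.

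The general junction proteins and Cldn1 did not pass the test in the second set, and their groups overlap. Ocln was at 8.56, 4.61 and 7.28 FPKM in the wild types and at 7.54, 8.63 and 6.81 FPKM in the knockouts (0.18 ± 0.20 SE, limma adjusted p = 0.509). Tjp1 was at 5.79, 4.85 and 9.01 FPKM against 7.32, 6.92 and 6.76 FPKM (0.12 ± 0.19 SE, limma adjusted p = 0.644). Tjp1 passed only without wild-type replicate 3, the highest library (limma adjusted p = 0.0439). Cldn1, a barrier claudin low in this tissue, was at 2.64, 1.68 and 3.69 FPKM against 2.51, 3.14 and 3.47 FPKM (0.17 ± 0.21 SE, limma adjusted p = 0.553).

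Markers of nephron segments moved in the same comparison. Of the segment lists, 10 of 12 proximal tubule genes, 7 of 8 tested thick ascending limb genes and 5 of 7 distal convoluted tubule genes rose and none fell. The thick ascending limb list includes the claudins Cldn10, Cldn16 and Cldn19, and Cldn10 and Cldn19 are among its genes that rose. Of 10 principal cell genes 3 rose and none fell, and their summed FPKM overlapped (339.8 to 710.3 against 653 to 774.2). Of 10 intercalated cell genes 6 rose and none fell, with sums that did not overlap (144.8 to 178.2 against 232.2 to 291.9 FPKM), and of 7 podocyte genes 4 rose and none fell. In bulk tissue, fewer cells of a type and less RNA per cell cannot be told apart. Whether the nephron segments take part in the changes of the junction genes was not tested.

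**Figure D2:**
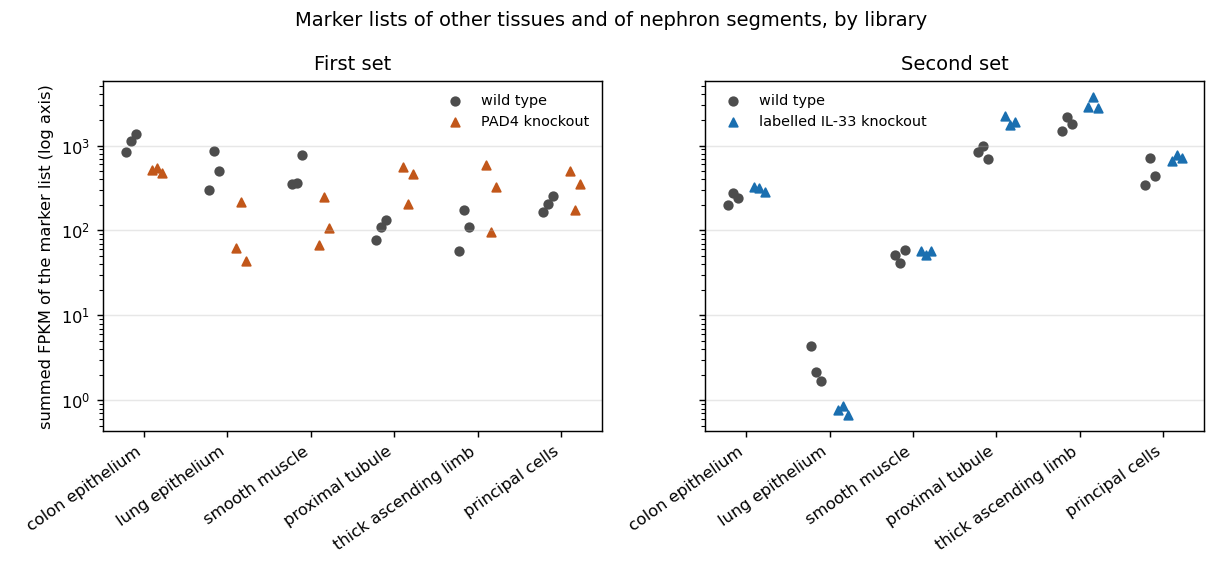
Summed FPKM of 6 marker lists in every library (log axis), first set on the left and second set on the right. In the first set the colon, lung and smooth muscle sums lie lower in all PAD4 knockouts, while the lung sum is at most 4.30 FPKM in the second set and its smooth muscle sums overlap.

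In the PAD4 knockouts 2 of the 10 junction genes changed: Cldn7 fell and Cdh16 rose. Over all 13986 genes tested 17.7% were called, 8.89% higher and 8.79% lower, so a share of 2 in 10 is near the background. Another 5 genes, Cldn1, Cldn2, Cldn3, Cdh1 and Ocln, also had groups that did not overlap but missed the adjusted threshold. In all, 3 of 10 lay wholly higher and 4 wholly lower, beside 17.2% and 15.8% of all genes (33.0% in either direction). The median change of the 10 was -0.404, beside 0.0158 over all genes tested.

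Cldn7 was at 29.5, 30.9 and 48.4 FPKM in the wild types and at 13.1, 19.6 and 13.2 FPKM in the PAD4 knockouts. Wild-type replicate 3 was the highest wild type for Cldn7, as for each of the 10 genes except Cldn4, and every knockout lay below every wild type. The knockout mean was 42.2% of the wild-type mean (-1.18 ± 0.31 SE, limma adjusted p = 0.0138). The adjusted p was 0.0510 without wild-type replicate 1 and 0.0842 without wild-type replicate 3.

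Cdh16 was at 28.0, 32.8 and 33.9 FPKM in the wild types and at 95.3, 52.0 and 65.5 FPKM in the PAD4 knockouts. The wild types lay close together, and knockout replicate 1 was the highest of a wide knockout group. The means differ 2.25-fold (1.10 ± 0.32 SE, limma adjusted p = 0.0233). The adjusted p was 0.112, 0.0622 and 0.0714 without wild-type replicates 1, 2 and 3, and 0.0683 without knockout replicate 1.

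Markers of other tissues fell along with Cldn7. With the mean of the colon and lung lists as a covariate, the change of Cldn7 was -0.39 ± 0.76 (SE) and that of Cdh16 0.46 ± 0.81 (SE), each with a limma adjusted p of 0.9999. Cldn1 was the 1 junction gene called in that fit, higher by 1.90 ± 0.44 (SE, limma adjusted p = 0.00677). Cldn3, Cldn4, Cldn7 and Cdh1 are also expressed in the colon, as background knowledge. The colon and lung sums did not overlap between the groups of this set, so that fit can hardly separate the covariate from the knockout. With it the SEs of Cldn7 and Cdh16 went up from 0.31 and 0.32. The part of these other tissues in the changes of the junction genes was not tested. Of the nephron lists, 9 of 10 tested proximal tubule genes rose, with sums that did not overlap (78.1 to 132.8 against 204.6 to 563.5 FPKM). Of 10 intercalated cell genes 4 rose, again with sums that did not overlap (69.8 to 101.3 against 137.0 to 190.1 FPKM). Of 8 tested thick ascending limb genes 3 rose, the claudin Cldn10 among them. Of 5 tested leukocyte genes 4 fell, with sums that overlapped (48.1 to 154.6 against 19.3 to 57.8 FPKM). The part of these cell types was not tested.

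The other sealing claudins did not pass the test in the first set. Cldn3 was at 61.7, 61.2 and 87.1 FPKM in the wild types and at 34.1, 52.5 and 21.9 FPKM in the knockouts, lower in each knockout than in any wild type (-0.9995 ± 0.35 SE, limma adjusted p = 0.0551). Cldn4 overlapped fully, at 28.0, 11.9 and 27.4 FPKM against 12.1, 28.1 and 9.65 FPKM (-0.46 ± 0.39 SE, limma adjusted p = 0.460). Knockout replicate 2 was the library high in Cldn4, and without it the adjusted p was 0.0449. Without the same library the limma adjusted p was 0.00416 for Cldn3, 0.0149 for Cldn2 and 0.0496 for Cldn8. Knockout replicate 2 also had the lowest Cldn10 and Cldn8 and the highest colon and lung sums of the 3 knockouts.

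Cldn2 was at 3.47, 4.36 and 6.88 FPKM in the wild types of the first set and at 12.7, 7.30 and 7.90 FPKM in the PAD4 knockouts, with no overlap (0.81 ± 0.29 SE, limma adjusted p = 0.0592). Cldn8 overlapped, at 3.89, 4.34 and 7.19 FPKM against 9.85, 3.18 and 8.89 FPKM (0.36 ± 0.33 SE, limma adjusted p = 0.512). Cldn1 was under 1 FPKM in all wild types, at 0.572, 0.577 and 0.870 FPKM, and at 0.930, 3.29 and 0.892 FPKM in the knockouts (0.59 ± 0.25 SE, adjusted p = 0.120). Its knockout mean rests mostly on replicate 2, and it passed when knockout replicate 1 (limma adjusted p = 0.0133) or knockout replicate 3 (0.0386) was left out.

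E-cadherin and the general junction proteins had lower means in the PAD4 knockouts, without a call. Cdh1 was at 27.2, 26.6 and 49.2 FPKM against 20.5, 20.7 and 14.8 FPKM (-0.80 ± 0.32 SE, limma adjusted p = 0.0935). Ocln was at 3.27, 3.24 and 5.42 FPKM against 2.25, 2.50 and 2.07 FPKM (-0.58 ± 0.24 SE, limma adjusted p = 0.0972). For both genes the groups did not overlap. Tjp1 overlapped, at 2.42, 3.76 and 4.20 FPKM against 2.22, 2.60 and 2.54 FPKM (-0.35 ± 0.23 SE, limma adjusted p = 0.338). The ratio of Cdh16 to Cdh1 was 1.03, 1.23 and 0.689 in the wild types and 4.65, 2.51 and 4.44 in the knockouts, so it lay higher in all 3 knockouts here too.

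**Figure D3:**
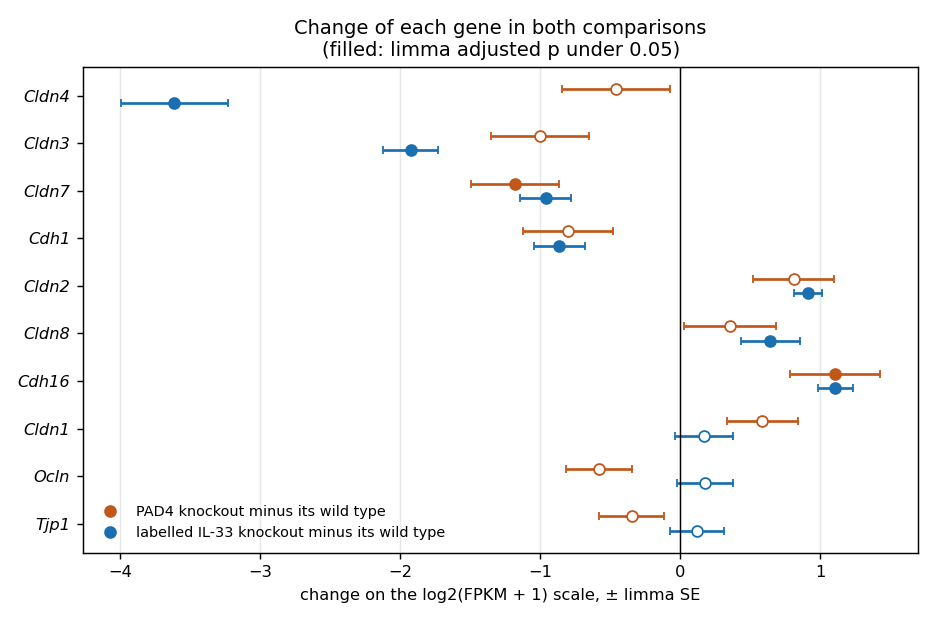
Change of each junction gene, knockout less wild type in log2(FPKM + 1), in both comparisons (points, with limma SE as bars; filled where the adjusted p is under 0.05). Cldn4 is the gene on which the comparisons lie farthest apart, at -0.46 and -3.61, and Cdh16 the one on which they lie closest, near 1.1 in both.

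The 2 comparisons use separate wild types. The estimates for Tjp1 and Ocln, called in neither, had opposite signs in the 2. Their second-set signs were not stable: with a library left out, the lowest change was -0.0441 for each. Cldn7 and Cdh16 were called in the same direction in both, 2 of 10 beside 7.13% of the 13010 genes tested in both tables. The difference between the changes, labelled IL-33 knockout minus PAD4 knockout, was tested over all 12 libraries, where 12.4% of those genes were called. Of the 10 junction genes only Cldn4 was called: its changes differ by -3.15 ± 0.62 (SE, limma adjusted p = 0.00468), and the difference passed in each of 23 other settings tried, from -3.60 to -2.71. For Cldn3 the difference was -0.93 ± 0.40 (SE, limma adjusted p = 0.152), and it passed only without PAD4 knockout replicate 3 (limma adjusted p = 0.0401). For Ocln it was 0.76 ± 0.30 (SE, limma adjusted p = 0.112), and for Tjp1 it was 0.467 ± 0.285 (SE, limma adjusted p = 0.313). For Cdh16 it was 0.0012 ± 0.32 (SE, limma adjusted p = 0.999). The set is also the submitters' batch, so what sets these knockouts apart and what sets the batches apart cannot be told apart.

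The order of the junction genes by FPKM differed between groups. In the wild types of the first set Cldn3 led at 70.0 ± 14.8 FPKM (SD, n = 3), followed by Cldn7, Cdh1 and Cdh16, whose libraries overlap between neighbours, then Cldn4. In the PAD4 knockouts Cdh16 led at 70.9 ± 22.2 FPKM (SD, n = 3), overlapping with Cldn3. In the wild types of the second set Cldn4 and Cdh16 led and overlapped with each other, while in the libraries labelled IL-33 knockout Cdh16 was first at 277 ± 10.8 FPKM and Cldn2 second at 139 ± 0.42 FPKM (SD, n = 3), with no overlap. There Cldn4, Cldn7, Cldn3, Ocln and Tjp1 followed each other closely, each overlapping with the next. Cldn1 had the lowest mean in all 4 groups, and only in the PAD4 knockouts did it overlap with the gene above it, Ocln.

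As a share of the summed FPKM of all 23 claudins, the make-up of the libraries differed between groups. Cldn4 held 63.2%, 28.7% and 39.8% of claudin FPKM in the wild types of the second set and 3.97%, 4.08% and 3.75% in the libraries labelled IL-33 knockout. Cldn2 held 13.7%, 23.9% and 19.4% against 45.2%, 40.4% and 44.8%. Neither share overlaps between groups, while the claudin sum itself does overlap (479.3, 304.8 and 426.2 against 308.6, 343.8 and 310.0 FPKM). Cldn3 in the first set held 42.8%, 39.7% and 41.9% in the wild types and 24.8%, 39.6% and 22.2% in the PAD4 knockouts, with knockout replicate 2 close to the wild types. These shares depend on one another, since a fall of one claudin raises the share of the rest.

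**Figure D4:**
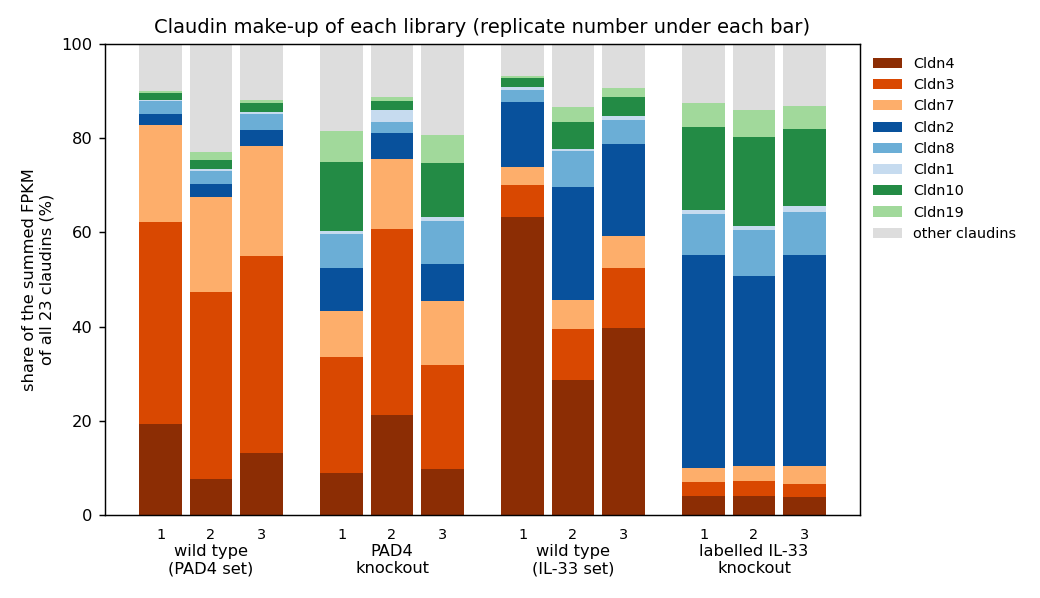
Share of the summed FPKM of all 23 claudins held by each claudin (percent), 1 bar per library. Cldn2 holds 40.4% to 45.2% in the libraries labelled IL-33 knockout against 13.7% to 23.9% in their wild types.

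Among the 17 other claudins, Cldn10, a claudin of the proximal tubule and thick ascending limb, rose in both comparisons. It was at 9.70, 17.3 and 17.0 FPKM in the wild types of the second set and at 54.4, 64.5 and 50.8 FPKM in the libraries labelled IL-33 knockout (1.91 ± 0.21 SE, limma adjusted p = 0.000485). Its values in the first set were 1.88, 2.88 and 4.09 FPKM against 19.8, 2.66 and 11.3 FPKM, where PAD4 knockout replicate 2 lay among the wild types (1.35 ± 0.43 SE, adjusted p = 0.0346). Of 8 tested other claudins in the second set 3 rose and 1 fell: Cldn12 (0.49 ± 0.13 SE) and Cldn19 (1.54 ± 0.50 SE), the latter needed for magnesium handling in the thick ascending limb, rose, and Cldn23 (-0.90 ± 0.19 SE) fell. Of 9 tested in the first set 1 rose and 2 fell, Cldn23 (-1.13 ± 0.26 SE) and Cldn18 (-0.84 ± 0.21 SE), the latter known from lung and stomach. The median changes were 0.184 and -0.147, beside 0.0442 and 0.0158 over all genes tested. Of all genes tested, 22.2% were called higher and 16.8% lower in the second set, and 8.89% and 8.79% in the first.

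**Figure D5:**
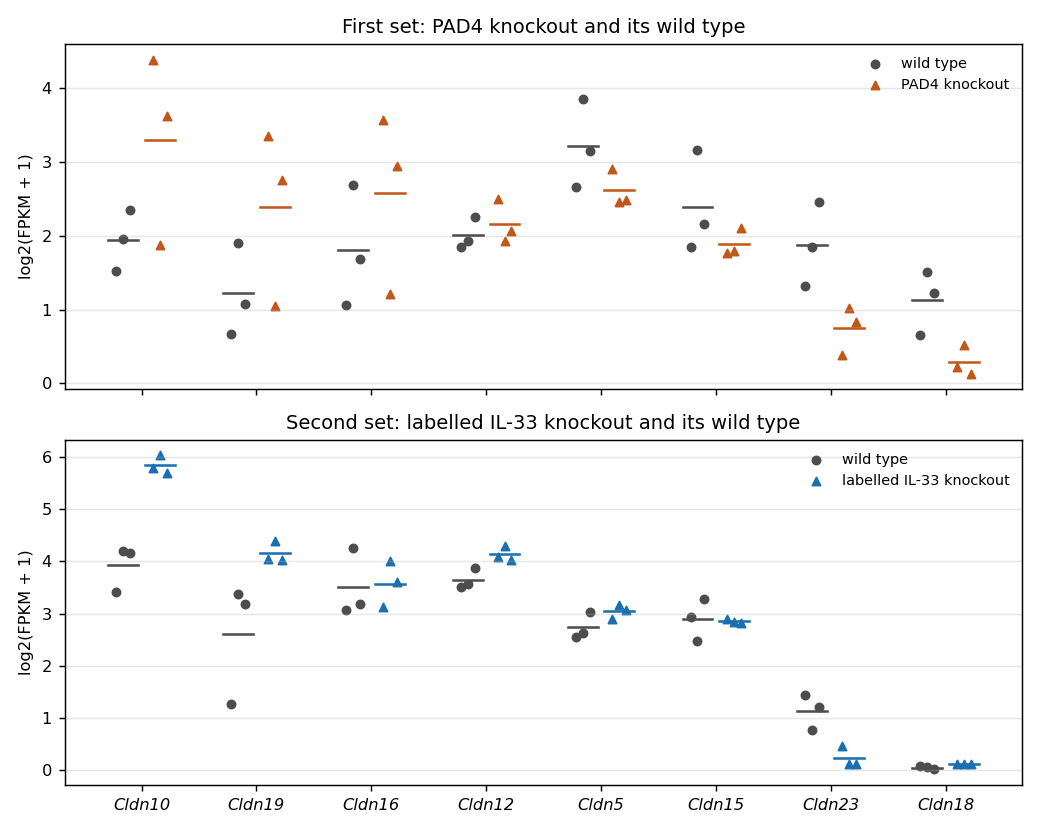
Level of 8 other claudins on the log2(FPKM + 1) scale in every library (points; lines are group means), first set above and second set below. Cldn10 lies higher in all 3 libraries labelled IL-33 knockout than in their wild types, whereas in the first set PAD4 knockout replicate 2 lies among the wild types.

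The remaining cadherins were mostly low. In the second set 2 of 6 tested rose, Cdh11 from 0.269 to 1.34 FPKM (0.88 ± 0.13 SE, limma adjusted p = 0.00172) and Cdh6, a cadherin of the nephron, from 0.420 to 1.11 FPKM (0.58 ± 0.15 SE, adjusted p = 0.0179). Of 5 tested in the first set 1 fell, the intestinal cadherin Cdh17, from 7.19 to 1.93 FPKM (-1.54 ± 0.30 SE, limma adjusted p = 0.00200), a gene that is also on the colon list.

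The lists of junction partners held calls in both directions. Beside these and the following lists, 22.2% of all genes tested were called higher and 16.8% lower in the second set. In the first set the shares were 8.89% and 8.79%. The lists are small, so their counts are descriptions. Of 22 tight junction plaque and adhesion genes in the second set 7 rose and 4 fell, among them Prkcz, an atypical protein kinase C of cell polarity (0.92 ± 0.12 SE), F11r, which encodes JAM-A (-0.57 ± 0.09 SE), and Lsr, which marks tricellular junctions (-0.73 ± 0.12 SE). Jam3 (-0.67 ± 0.23 SE) was the 1 of 21 that fell in the first set, and none rose. Of 14 partners of the adherens junction 2 rose and 4 fell in the second set. The adhesion molecules Nectin1 (-0.86 ± 0.12 SE), Nectin2 (-0.77 ± 0.12 SE) and Nectin4 (-0.72 ± 0.13 SE) fell, as Cdh1 did. Nectin3 of the same family rose without overlap (0.58 ± 0.12 SE, limma adjusted p = 0.00708). The PAD4 knockouts had 1 of the 14 higher and 3 lower. Ctnnb1, which encodes beta-catenin, the partner of E-cadherin's tail, rose there from 8.45, 12.6 and 15.3 FPKM to 54.8, 59.0 and 50.2 FPKM (2.12 ± 0.31 SE, limma adjusted p = 0.000221). Ctnnb1 also rose in the second set, from a mean of 66.6 to 100.5 FPKM without overlap (0.60 ± 0.135 SE, limma adjusted p = 0.0105). In the PAD4 knockouts the actin linkers Lima1 (-0.91 ± 0.26 SE) and Vcl (-0.84 ± 0.24 SE) fell, as did Nectin2 (-0.80 ± 0.255 SE, limma adjusted p = 0.03505). Desmosome genes went 2 up and 3 down of 9 in the second set, with Pkp4 (0.85 ± 0.09 SE) and Evpl (1.00 ± 0.15 SE) higher and Pkp2 (-0.83 ± 0.11 SE) lower. In the first set 3 of 9 fell, Dsg2 (-1.06 ± 0.25 SE), Dsc2 (-0.84 ± 0.23 SE) and Dsp (-0.90 ± 0.26 SE).

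Regulators known to act on junction genes were also counted. Of 12 epithelial regulators tested in the second set, the splicing factor Esrp2 fell (-0.35 ± 0.09 SE, limma adjusted p = 0.0180) and none rose. The first set had 2 that rose and 2 that fell, with Klf5 (-1.51 ± 0.26 SE) and Elf3 (-1.24 ± 0.33 SE) lower. Repressors of E-cadherin did not pass in the second set, 0 of 4, where Zeb2 (-0.04 ± 0.16 SE, limma adjusted p = 0.847) and Snai1 (0.05 ± 0.28 SE, limma adjusted p = 0.894) had the highest levels. In the first set 3 of 6 fell, Twist2 (-0.67 ± 0.18 SE), Twist1 (-0.73 ± 0.20 SE) and Snai1 (-0.59 ± 0.19 SE), all below 2 FPKM on average, while Cdh1 was not called.

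Among 7 genes of EpCAM and the membrane proteases that act on it and on claudin-7, Prss8, which encodes prostasin, rose in both comparisons (1.13 ± 0.11 SE in the second set and 1.48 ± 0.33 SE in the first), and St14, which encodes matriptase, fell in both (-0.70 ± 0.13 SE and -0.94 ± 0.30 SE). Spint1, an inhibitor of both proteases, fell in the second set (-0.59 ± 0.11 SE), and Epcam, the partner of claudin-7, fell in the first (-1.16 ± 0.33 SE). The counts were 1 higher and 3 lower of 7 in the second set and 1 higher and 2 lower in the first.

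Across all 12 libraries, after centring each table on its own mean, the levels of Cldn3 and Cldn7 (Pearson r = 0.899), Cldn3 and Cldn4 (0.876) and Cldn2 and Cdh16 (0.953) ran together, and Cldn7 and Cdh16 ran opposite (-0.85). These points share the difference between groups and the composition of each library, so the values are descriptions. Of 13010 genes, those most like Cldn4 were Smpd5 (0.989), Lama5 (0.981) and Clcf1 (0.978). For Cdh16 they were Tysnd1 (0.996), Abca2 (0.992) and Aqp6 (0.992), the last a water channel of intercalated cells. For Cldn7 they were Gsto1 (0.979), Sox4 (0.978) and the epithelial keratin Krt8 (0.978).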

How the data were processed

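Poly(A)-selected, strand-specific libraries were sequenced, per the labels' protocols. The authors deposited FPKM values in 1 table per set, per the file headers. FastQC, cutadapt, HISAT2, StringTie, DESeq2 and edgeR are named per the submitters' processing notes, with no order or version, and a genome build or annotation is not given in the sources used here. FPKM carries no sequencing depth, so the depth is unknown and no counting interval is given. Columns were matched to libraries by name, 0 columns belonged to no sample, and in the second table the columns of the wild types bear a number but no genotype. Replicates of a group differed at nearly all genes, so none was counted as a duplicate.

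GENCODE M21 gave symbols to 30212 of 32199 and 29690 of 31719 genes, and RefSeq gave synonyms. Each table was analysed alone as log2(FPKM + 1) in limma 3.58.1 (R 4.3.3, lmFit and eBayes with a trend) over genes with a mean of at least 0.5 FPKM (13986 and 14513 genes), with Benjamini-Hochberg adjustment and a threshold of 0.05. The scale understates changes of low genes, and limma's SE draws on the spread of other genes. The difference between the changes was a contrast of 4 group means over 12 libraries. All tests are two-sided. Lists are described by counts and medians, with no set test. The scripts were tested on simulated data.

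The 10 genes, the lists, the covariate and the naming rule were chosen with earlier results of these data known, and the motifs after the values were seen. The rule names the 10 genes, Padi4, Il33, up to 6 called claudins or cadherins per comparison, up to 3 called genes of smallest p in each other list, or the 2 of highest mean, and the 3 genes most like a member. It was applied to the junction lists, and some genes it names are not reported here. Colon and lung genes named beside it show whether those tissues' defining markers were present. Nectin3, Ctnnb1 in the second set and Nectin2 in the first are also named beside it, to show both directions and both sets. Other settings tried were no filter, a mean of at least 2 FPKM, pseudocounts of 0.1 and 0.5, 4 rescalings, no trend, array weights, a replicate block, each library left out and, within a set, a covariate from the colon and lung lists.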

Additional observations from a re-analysis of the deposited data

Results flagged for a closer look

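The changes of Cldn4 in the 2 comparisons differ by a test of the difference itself: labelled IL-33 knockout minus PAD4 knockout gave -3.15 ± 0.62 on the log2(FPKM + 1) scale (SE, limma adjusted p = 0.00468). Cldn4 was lower in 3 of 3 libraries labelled IL-33 knockout than in any of their wild types, and it overlapped between the groups of the first set. As a mean share of all claudin FPKM, Cldn4 held 43.9% in the second set's wild types and 3.93% in the libraries labelled IL-33 knockout. In the first set it held 13.4% in the wild types and 13.3% in the PAD4 knockouts, so the wild types of the sets also differ. The set is the submitters' batch, so knockout and batch cannot be told apart here. Groups of 3 libraries are too small to be screened for a single outlying library.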

How the results depend on the processing

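In the second set 6 of the 7 called junction genes (Cldn2, Cldn3, Cldn4, Cldn7, Cdh1 and Cdh16) passed in all 18 other settings, and no called gene changed sign in either set. Cldn8 missed there with no filter (limma adjusted p = 0.121), quantile normalization (0.0508) and no trend (0.0509). In the PAD4 set, junction genes called higher numbered 0 with no filter, 2 with a mean of at least 2 FPKM, median-of-ratios scaling or quantile normalization, and 3 with array weights, whose iterations stopped early. Leaving out a library gave 0 to 3. Those called lower numbered 0 with no filter or the covariate, 2 with rescaling to the non-mitochondrial sum or no trend, 4 with median-of-ratios scaling or quantile normalization and 5 with array weights, and 0 to 3 when a library was left out. Over all genes of that set, 0 rose and 0 fell with no filter, although 2970 and 3083 had an unadjusted limma p under 0.05. The higher calls were 1909 with quantile normalization, 2267 with array weights and 63 with the covariate. The lower calls were 762 with a mean of at least 2 FPKM, 2939 with array weights and 15 with the covariate. Leaving out a library gave 352 to 1770 higher and 515 to 1764 lower, and in the second set 2072 to 3903 higher and 1554 to 2662 lower. For the difference between the changes, higher calls were 1369 with no filter, 375 with a mean of at least 2 FPKM, 1544 with median-of-ratios scaling, 1389 with quantile normalization and 2037 with array weights (533 to 1143 with a library left out). Lower calls were 1446, 1723 and 1488 with the last 3 (522 to 1032), and 1 to 2 junction genes were called lower with a library left out. The causes were not tested.

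The deviations of same-numbered libraries had correlations of -0.0159, -0.113 and -0.146 in the first set and -0.0144, 0.134 and -0.00166 in the second. Those of differently numbered libraries ran from -0.129 to 0.232, and the main fits used no pairing. With groups of 3 these correlations cannot show whether same-numbered libraries share more than a number. With a replicate block, 0 junction genes were called in the PAD4 set (951 genes rose and 1033 fell in all; Cldn7 adjusted p = 0.0669, Cdh16 0.124) and 3 rose and 4 fell in the second.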
